A study of Mus musculus with 11 samples.

Results

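The genes described here build, branch, cap and anchor actin filaments. They are 43 genes named as the actin assembly and focal adhesion machinery, and all 43 were listed in the count tables and were among the 14045 genes that passed edgeR's filter on low counts and were tested. They were listed by symbol and by role. *Diaph1* was found under its older symbol *Diap1*. By role they fall into 9 groups, with 2 actin isoforms, 3 cross-linkers, 8 subunits of the Arp2/3 complex, 7 genes of the WAVE complex with N-WASP and cortactin, and 6 of monomer binding and turnover. The others are 3 subunits of capping protein, 4 formin and Ena/VASP genes, 4 small GTPases and 6 focal adhesion genes.

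As background, a migrating cell pushes its leading edge forward by actin polymerisation. The GTPases Rac and Cdc42 switch on the WAVE complex and N-WASP, which make the Arp2/3 complex nucleate new filaments as branches of old ones, while formins and Ena/VASP proteins lengthen filaments and capping protein stops their growth. Cofilin, profilin, coronins and thymosins recycle and hold monomers, filamin and α-actinins cross-link filaments, and talin, paxillin, zyxin and focal adhesion kinases connect them to integrins, on which keratinocytes crawl as a sheet over a wound bed.

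The study wounded the back skin of mice (strain C57BL/6 in the labels, C57BL/6J in its methods) with a 4 mm punch and took keratinocytes on day 3 from the 1 mm wound margin and from distal unwounded skin, sorted for CD49F, with antibodies to CD45, CD31 and TER119 used to leave out blood and endothelial cells. Per its methods the mice were 8-week littermates of both sexes, either WT carrying Krt14-Cre, which acts in basal keratinocytes and their progeny, or Krt14-Cre with floxed *Grhl3*, whose libraries are labelled GRHL3 KO and are called cKO-labelled here. RNA was counted in 2 WT unwounded, 2 WT wounded, 1 cKO-labelled unwounded and 2 cKO-labelled wounded libraries, and chromatin accessibility was measured by ATAC-seq in 1 library per condition, each from pooled mice. The title and the file name of the cKO-labelled unwounded library disagree on its replicate number. Depth ranged from 13497283 counts on genes in the cKO-labelled unwounded library to 16807451 in WT unwounded replicate 2. A count of 0 allows 0.178 to 0.222 CPM (read counts scaled by each library's total on genes) at these depths, which covers counting error only. No label says that replicates are separate animals, so the p-values measure spread between these samples.

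*Grhl3*, the targeted gene, was at 122 and 83.2 CPM in the WT unwounded, 110 and 90.0 CPM in the WT wounded, 76.2 CPM in the cKO-labelled unwounded and 116 and 104 CPM in the cKO-labelled wounded libraries. The groups with replicates overlapped, and the single cKO-labelled unwounded library was the lowest. The log2 fold change between the cKO-labelled wounded and WT wounded libraries was 0.17 (SE, standard error, 0.21). These counts cover the whole gene and not the floxed part, so they do not check the genotype, which is taken from the label. One library stood apart: the cKO-labelled unwounded library had *Xist*, the transcript of the inactive X chromosome, at 1101 CPM against 0.178 to 1.92 CPM in the other 6, and it alone lacked all reads of 4 Y-linked genes. *Flna* and *Tmsb4x* lie on chromosome X and were lowest in that library, and the part of sex in this was not tested. The 6 markers of basal keratinocytes summed to 34663 and 39054 CPM in the WT unwounded, 30890 and 44746 CPM in the WT wounded, 37006 CPM in the cKO-labelled unwounded and 42911 and 36239 CPM in the cKO-labelled wounded libraries, with *Krt14* the most abundant. Basal keratinocyte markers were thus abundant in every library, and of the erythroid list 4 of 5 genes were at 0 in every library and *Alas2* reached at most 0.910 CPM. Between 3.46% and 4.74% of reads (of those on genes, ambiguous or not unique) had no unique alignment and were not counted, and whether the reads were assigned by strand is not given in the sources used here. *Actb*, *Actg1*, *Cfl1*, *Pfn1*, *Tmsb4x* and *Tmsb10* have near-identical relatives or pseudogenes, so their counts are less certain than those of the other members.

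CPM per kb of exon divides by the merged length of all annotated exons of a gene. It allows only a rough comparison between genes, because long or many annotated exons lower the value. On that scale the cytoplasmic actins led, with means over the 7 libraries of 1674 for *Actg1* and 1515 for *Actb*. Of 23379 genes with an exon length, *Actg1* had rank 10 and *Actb* rank 13 on that scale. Their ranges over libraries overlapped, at 1482 to 1960 CPM per kb for *Actg1* and 1270 to 1714 CPM per kb for *Actb*. Next came *Tmsb4x* at 256, *Cfl1* at 157, *Arpc2* at 152 and *Actn4* at 142 CPM per kb, so a monomer buffer, cofilin, an Arp2/3 subunit and a cross-linker followed the actins. The lowest were *Rhoc* at 1.34, *Evl* at 3.68, *Ptk2* at 6.07 and *Ptk2b* at 7.25 CPM per kb. Within the WAVE complex *Nckap1*, at 63.9 CPM per kb, was above *Wasf2* at 30.9, *Abi1* at 25.8, *Brk1* at 24.3 and *Cyfip1* at 14.6. Their proteins assemble into one complex, but these values depend on annotated exon lengths, from 1095 bases for *Brk1* to 11941 for *Cyfip1*. All 43 members summed to 17022 and 16290 CPM in the WT unwounded, 18518 and 17953 CPM in the WT wounded, 15071 CPM in the cKO-labelled unwounded and 17632 and 14858 CPM in the cKO-labelled wounded libraries. The sum was highest in the WT wounded libraries and lowest in cKO-labelled wounded replicate 2 and the cKO-labelled unwounded library, with a highest-to-lowest ratio of 1.25.

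The first comparison asked how this machinery differs between wound-edge and unwounded WT keratinocytes. Most of it was within the spread of the replicates, and no gene of the Arp2/3 complex or of the WAVE, N-WASP and cortactin group had an unadjusted P under 0.05. The cross-linkers *Flna* and *Actn1*, the elongation factor *Enah*, the monomer binder *Tmsb10* and the adhesion kinase *Ptk2b* were higher in WT wounded keratinocytes, with log2 fold changes of 0.54, 0.44, 0.65, 0.70 and 0.68. These 5 were the members with an unadjusted P under 0.05 by edgeR's quasi-likelihood test, or 11.6% of members against 4.84% of all genes tested, and all were higher, a call that 3.18% of all genes tested had. In bulk RNA, more cells with a gene and more of its RNA per cell cannot be told apart. An adjusted p under 0.05 (Benjamini-Hochberg over all genes tested) was reached by 0 members and 0.0285% of all genes, the smallest member value being 0.696 for *Flna*, which was higher in both WT wounded libraries. By DESeq2 and by edgeR's likelihood ratio test 5 members had an unadjusted P under 0.05, beside 735 and 1117 of 14045 genes, and 0 members an adjusted p under 0.05. With no filter 7 members had an unadjusted P under 0.05, beside 907 of 16280 genes. With the replicate block 6 did, beside 719 of 14045 genes, and 0 members had an adjusted p under 0.05 in either. The log2 fold change was above 0 for 30 members and below 0 for 13, or 69.8% higher against 50.4% of all genes, with medians of 0.08 and 0.00. In CPM, both wounded libraries were above both unwounded ones for 10 members, against 15.2% of all genes, and below both for 1 member, against 18.3%. Without WT unwounded replicate 1, 3 members had an unadjusted P under 0.05. An exact permutation test of 2 libraries against 2 cannot give a p below 0.333.

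**Figure D1:**
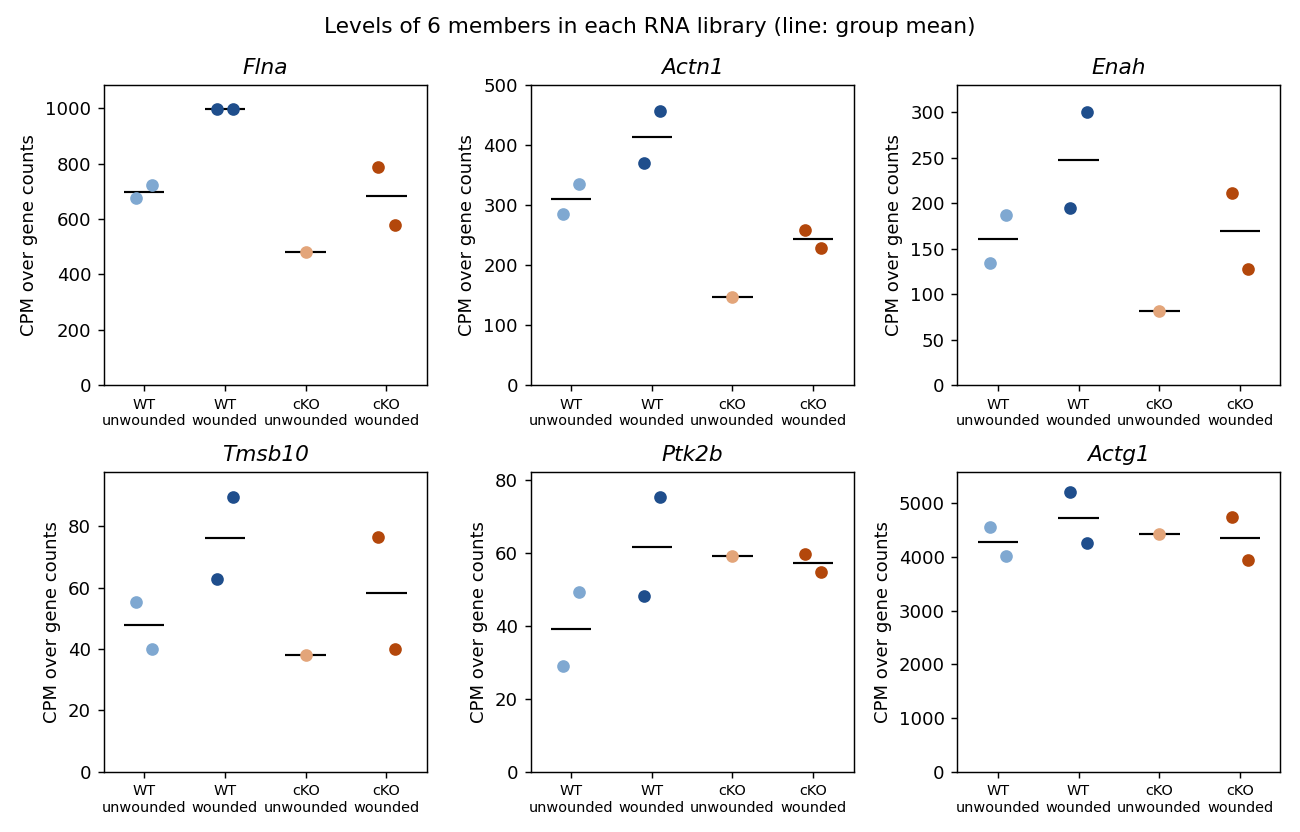
CPM (vertical axis) of 6 members in each of the 7 RNA libraries, grouped by genotype and wounding, with a line at each group mean. *Flna* and *Actn1* were highest in the WT wounded libraries and lowest in the cKO-labelled unwounded library, whereas the groups overlapped for *Actg1*.

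Actin itself, the filament subunit, held no gene with an unadjusted P under 0.05. *Actg1*, cytoplasmic γ-actin, was at 4568 and 4009 CPM in the WT unwounded, 5209 and 4257 CPM in the WT wounded, 4422 CPM in the cKO-labelled unwounded and 4750 and 3939 CPM in the cKO-labelled wounded libraries. The groups overlapped, and the log2 fold change in WT was 0.17 (edgeR's quasi-likelihood test, SE 0.15, unadjusted P = 0.291). *Actb*, cytoplasmic β-actin, was above both WT unwounded libraries in both WT wounded ones, with a log2 fold change of 0.18 (edgeR's quasi-likelihood test, SE 0.15, unadjusted P = 0.239). Together the actins summed to 8789 and 7860 CPM in the WT unwounded, 9802 and 8667 CPM in the WT wounded, 7825 CPM in the cKO-labelled unwounded and 9189 and 7440 CPM in the cKO-labelled wounded libraries, which is a highest-to-lowest ratio of 1.32.

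The cross-linkers varied more than any other role group between libraries. *Flna* (chrX:74223461-74249820), filamin A, which joins filaments into networks and ties them to integrins, was at 674 and 722 CPM in the WT unwounded, 998 and 998 CPM in the WT wounded, 483 CPM in the cKO-labelled unwounded and 787 and 579 CPM in the cKO-labelled wounded libraries. Both WT wounded libraries were above the other 5, and the cKO-labelled unwounded library was the lowest. In WT this was a log2 fold change of 0.54 (edgeR's quasi-likelihood test, SE 0.17, unadjusted P = 0.00610), with an unadjusted P under 0.05 whichever of the 4 libraries was left out. *Actn1* (chr12:80167547-80260371), α-actinin-1, which bundles filaments and is found in focal adhesions, was at 286 and 336 CPM in the WT unwounded, 370 and 456 CPM in the WT wounded, 147 CPM in the cKO-labelled unwounded and 258 and 228 CPM in the cKO-labelled wounded libraries. Here too the WT wounded libraries were the highest and the cKO-labelled unwounded library the lowest, with all cKO-labelled libraries below all WT ones. Between the WT groups it differed by a log2 fold change of 0.44 (edgeR's quasi-likelihood test, SE 0.17, unadjusted P = 0.0216). It was 0.34 without WT unwounded replicate 1 (edgeR's quasi-likelihood test, unadjusted P = 0.161) and 0.26 without WT wounded replicate 2 (unadjusted P = 0.220 by the same test). *Actn4*, α-actinin-4, was at 953 and 886 CPM in the WT unwounded, 971 and 855 CPM in the WT wounded, 738 CPM in the cKO-labelled unwounded and 861 and 821 CPM in the cKO-labelled wounded libraries. Its WT groups overlapped, with a log2 fold change of 0.01 (edgeR's quasi-likelihood test, SE 0.15, unadjusted P = 0.925). As a group the cross-linkers summed to 1913 and 1944 CPM in the WT unwounded, 2339 and 2309 CPM in the WT wounded, 1367 CPM in the cKO-labelled unwounded and 1906 and 1628 CPM in the cKO-labelled wounded libraries, a highest-to-lowest ratio of 1.71, with the WT wounded libraries highest.

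The Arp2/3 complex, which nucleates branched filaments, held no member with an unadjusted P under 0.05 in WT. *Arpc2*, a subunit that binds the mother filament, was at 308 and 317 CPM in the WT unwounded, 281 and 337 CPM in the WT wounded, 298 CPM in the cKO-labelled unwounded and 351 and 274 CPM in the cKO-labelled wounded libraries. Wounded libraries held the highest and the lowest values in both genotypes, with the unwounded ones between them, and the log2 fold change in WT was 0.01 (edgeR's quasi-likelihood test, SE 0.18, unadjusted P = 0.972). Over the 8 subunits the log2 fold changes ran from -0.08 (*Arpc3*) to 0.18 (*Actr3*), with 5 above 0 and 3 below. Their sum was 1552 and 1634 CPM in the WT unwounded, 1553 and 1742 CPM in the WT wounded, 1436 CPM in the cKO-labelled unwounded and 1561 and 1417 CPM in the cKO-labelled wounded libraries, a highest-to-lowest ratio of 1.23.

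Upstream of Arp2/3, the WAVE complex, N-WASP (*Wasl*) and cortactin (*Cttn*), which stabilises branches, summed to 1184 and 1166 CPM in the WT unwounded, 1139 and 1101 CPM in the WT wounded, 1217 CPM in the cKO-labelled unwounded and 1086 and 1054 CPM in the cKO-labelled wounded libraries. This was the narrowest spread of any role group, with a highest-to-lowest ratio of 1.15, and the cKO-labelled unwounded library was the highest. *Nckap1*, a scaffold subunit of the WAVE complex, was at 374 and 312 CPM in the WT unwounded, 324 and 285 CPM in the WT wounded, 339 CPM in the cKO-labelled unwounded and 277 and 310 CPM in the cKO-labelled wounded libraries. The WT groups overlapped, with a log2 fold change of -0.15 (edgeR's quasi-likelihood test, SE 0.16, unadjusted P = 0.373). The group's values in WT ran from -0.33 (*Brk1*) to 0.09 (*Cttn*), with 3 above 0 and 4 below.

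Among the genes that bind monomers and turn filaments over, *Tmsb10* (chr6:72957347-72958748), thymosin β10, which holds actin monomers, was at 55.3 and 40.2 CPM in the WT unwounded, 62.9 and 89.7 CPM in the WT wounded, 38.1 CPM in the cKO-labelled unwounded and 76.4 and 39.9 CPM in the cKO-labelled wounded libraries. WT wounded replicate 2 and cKO-labelled wounded replicate 1 were the highest, while cKO-labelled wounded replicate 2 lay beside the lowest unwounded libraries. The WT groups did not overlap, and the log2 fold change was 0.70 (edgeR's quasi-likelihood test, SE 0.29, unadjusted P = 0.0278). It was 0.48 without WT unwounded replicate 2 (edgeR's quasi-likelihood test, unadjusted P = 0.192) and 0.40 without WT wounded replicate 2 (unadjusted P = 0.217 by the same test). *Tmsb4x*, thymosin β4, the related and more abundant monomer buffer, was at 370 and 379 CPM in the WT unwounded, 319 and 380 CPM in the WT wounded, 271 CPM in the cKO-labelled unwounded and 322 and 415 CPM in the cKO-labelled wounded libraries. Its groups overlapped in WT, and its log2 fold change was -0.07 (edgeR's quasi-likelihood test, SE 0.16, unadjusted P = 0.660). *Cfl1*, which severs filaments, and *Pfn1*, which feeds monomers to growing ends, had WT log2 fold changes of 0.14 (SE 0.18) and 0.19 (SE 0.20). The 6 genes summed to 1377 and 1474 CPM in the WT unwounded, 1344 and 1620 CPM in the WT wounded, 1177 CPM in the cKO-labelled unwounded and 1497 and 1306 CPM in the cKO-labelled wounded libraries, a highest-to-lowest ratio of 1.38.

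Capping protein, a heterodimer that closes the growing end, summed over its 3 genes to 369 and 378 CPM in the WT unwounded, 332 and 432 CPM in the WT wounded, 319 CPM in the cKO-labelled unwounded and 391 and 373 CPM in the cKO-labelled wounded libraries. *Capzb*, its β subunit, was at 153 and 150 CPM in the WT unwounded, 137 and 192 CPM in the WT wounded, 133 CPM in the cKO-labelled unwounded and 155 and 161 CPM in the cKO-labelled wounded libraries. The WT wounded libraries held both the highest value and the second lowest, and the log2 fold change in WT was 0.14 (edgeR's quasi-likelihood test, SE 0.18, unadjusted P = 0.445).

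The elongation factors included the member with the widest range among the well-counted ones. *Enah* (chr1:181896384-182019990), which encodes Mena and protects growing ends from capping, was at 134 and 187 CPM in the WT unwounded, 195 and 300 CPM in the WT wounded, 81.9 CPM in the cKO-labelled unwounded and 211 and 128 CPM in the cKO-labelled wounded libraries. The cKO-labelled unwounded library was the lowest and WT wounded replicate 2 the highest, and both WT wounded libraries were above both WT unwounded ones. That is a WT log2 fold change of 0.65 (edgeR's quasi-likelihood test, SE 0.25, unadjusted P = 0.0208). It was 0.44 without WT unwounded replicate 1 (edgeR's quasi-likelihood test, unadjusted P = 0.167) and 0.29 without WT wounded replicate 2 (unadjusted P = 0.294 by the same test). *Vasp*, a relative of Mena, was at 109 and 108 CPM in the WT unwounded, 104 and 120 CPM in the WT wounded, 105 CPM in the cKO-labelled unwounded and 130 and 97.8 CPM in the cKO-labelled wounded libraries. Its groups overlapped, and the log2 fold change in WT was 0.07 (edgeR's quasi-likelihood test, SE 0.19, unadjusted P = 0.737). *Diaph1*, a formin, had one of -0.05 (edgeR's quasi-likelihood test, SE 0.18, unadjusted P = 0.781). The 4 genes summed to 510 and 526 CPM in the WT unwounded, 517 and 676 CPM in the WT wounded, 423 CPM in the cKO-labelled unwounded and 634 and 474 CPM in the cKO-labelled wounded libraries, a highest-to-lowest ratio of 1.60.

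Of the small GTPases, *Rac1*, which signals to the WAVE complex, was at 283 and 266 CPM in the WT unwounded, 257 and 281 CPM in the WT wounded, 242 CPM in the cKO-labelled unwounded and 286 and 223 CPM in the cKO-labelled wounded libraries. The WT groups overlapped, with a log2 fold change of -0.01 (edgeR's quasi-likelihood test, SE 0.17, unadjusted P = 0.974). *Rhob* had the smallest P among the 29 members not named by the rule for full values, with a log2 fold change of 0.39 (edgeR's quasi-likelihood test, SE 0.20, unadjusted P = 0.0667). *Rhoc* had only 7 to 73 counts per library, so its log2 fold change of 0.70 (SE 0.98) is imprecise. The GTPases summed to 553 and 520 CPM in the WT unwounded, 569 and 569 CPM in the WT wounded, 564 CPM in the cKO-labelled unwounded and 593 and 481 CPM in the cKO-labelled wounded libraries.

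At focal adhesions, *Ptk2b* (chr14:66153257-66281052), the kinase PYK2 related to focal adhesion kinase, was at 29.1 and 49.4 CPM in the WT unwounded, 48.2 and 75.3 CPM in the WT wounded, 59.3 CPM in the cKO-labelled unwounded and 59.6 and 54.7 CPM in the cKO-labelled wounded libraries. WT unwounded replicate 1 was the lowest and WT wounded replicate 2 the highest. WT unwounded replicate 2 and WT wounded replicate 1 overlapped in CPM. Its WT log2 fold change was 0.68 (edgeR's quasi-likelihood test, SE 0.26, unadjusted P = 0.0198). It was 0.36 without WT unwounded replicate 1 (edgeR's quasi-likelihood test, unadjusted P = 0.237), 0.31 without WT wounded replicate 2 (unadjusted P = 0.299 by that test) and 1.10 without WT unwounded replicate 2. *Tln1*, talin 1, which activates integrins and joins them to actin, was at 355 and 360 CPM in the WT unwounded, 388 and 385 CPM in the WT wounded, 346 CPM in the cKO-labelled unwounded and 341 and 300 CPM in the cKO-labelled wounded libraries. Both WT wounded libraries were above both WT unwounded ones, with a small log2 fold change of 0.14 (edgeR's quasi-likelihood test, SE 0.16, unadjusted P = 0.393). The 6 adhesion genes summed to 774 and 789 CPM in the WT unwounded, 924 and 837 CPM in the WT wounded, 743 CPM in the cKO-labelled unwounded and 776 and 683 CPM in the cKO-labelled wounded libraries, with the WT wounded libraries highest. Over the 29 members not given in full, the WT log2 fold changes ran from -0.33 (*Brk1*) to 0.70 (*Rhoc*), 19 above 0 and 10 below.

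**Figure D2:**
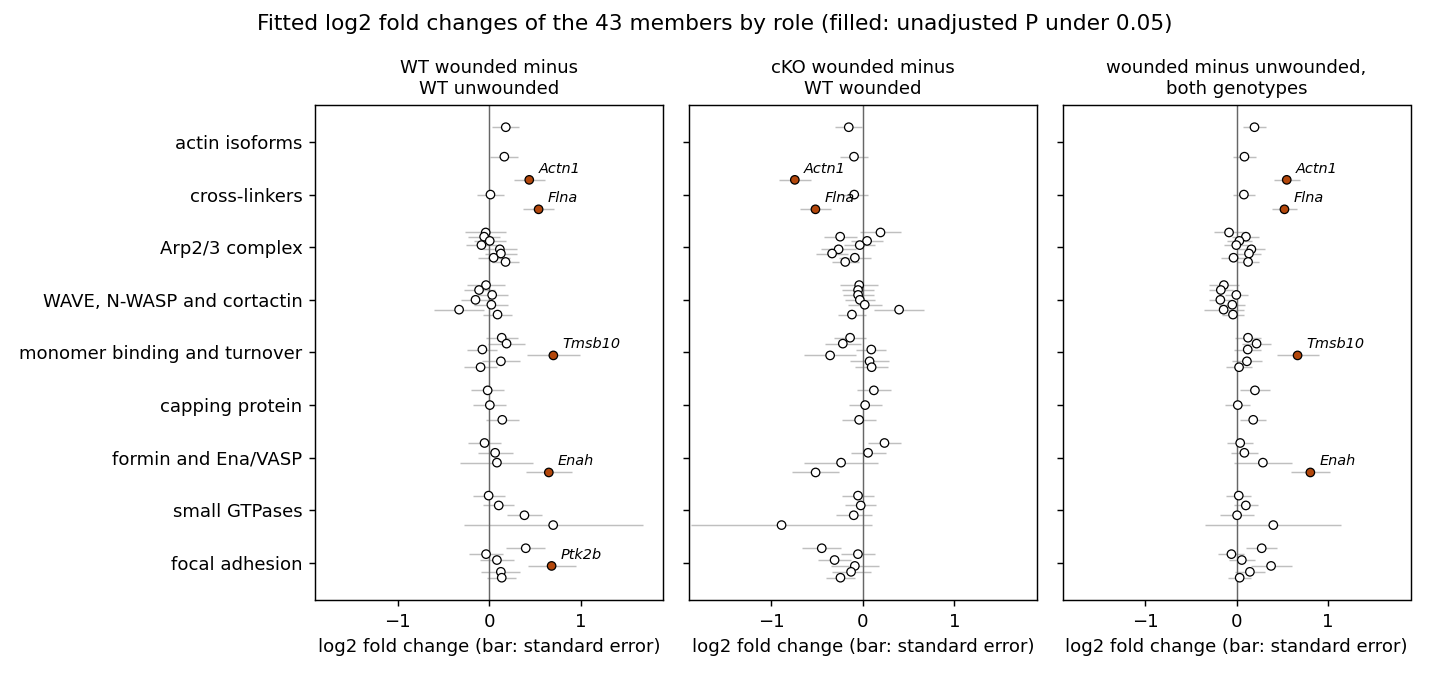
Fitted log2 fold change (horizontal axis) of the 43 members, ordered by role, in the WT wound response, in cKO-labelled against WT after wounding and in the wound effect over both genotypes, with bars of 1 standard error and filled points for an unadjusted P under 0.05. The filled points lie above 0 at *Flna*, *Actn1*, *Enah*, *Tmsb10* and *Ptk2b* in the WT wound response, and at the same genes without *Ptk2b* over both genotypes. In the genotype comparison they lie at *Actn1* and *Flna* below 0.

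Other genes of the same pathways, listed by name, were counted in the same WT test, in which 3.18% of all genes tested were higher and 4.84% had either direction, and those named beyond the smallest P were chosen after their values were seen. Of 36 further focal adhesion genes tested (39 listed, among them *Hic1*, which encodes a transcriptional repressor), 4 were higher and 1 lower at an unadjusted P under 0.05. *Fblim1*, which encodes migfilin, a binder of filamin, had a log2 fold change of 1.61 (edgeR's quasi-likelihood test, SE 0.46, unadjusted P = 0.00275), which became 1.19 without WT wounded replicate 1 (edgeR's quasi-likelihood test, unadjusted P = 0.0526). *Tes*, a zyxin partner, had one of 0.87 (edgeR's quasi-likelihood test, SE 0.27, unadjusted P = 0.00511), and it was 0.63 without WT unwounded replicate 2 (unadjusted P = 0.0703 by the same test). *Pdlim7* (0.69) and *Fermt2* (0.81) were the others that were higher, and *Tns2* (-0.65) was lower. In CPM with edgeR's TMM scaling *Pdlim7* was at 19.5 and 12.6 in the WT unwounded and 30.0 and 21.7 in the WT wounded libraries. In the same order *Fermt2* was at 10.4 and 12.7 and at 25.2 and 15.2, and *Tns2* at 40.3 and 59.2 and at 26.6 and 36.8. The sizes of these values thus depend on single libraries. Of 18 other formins and barbed-end genes 1 was higher, *Cobl*, a nucleator, at 0.70 (edgeR's quasi-likelihood test, SE 0.31, unadjusted P = 0.0384), which was 0.22 without WT unwounded replicate 2 and 0.49 without WT wounded replicate 1, both with an unadjusted P above 0.05, and 1.43 without WT unwounded replicate 1. Without the cKO-labelled unwounded library its unadjusted P was 0.0555 by the same test. *Eps8*, a capping and bundling gene, followed with 0.56 (edgeR's quasi-likelihood test, SE 0.29, unadjusted P = 0.0677), and it passed at 0.81 without WT wounded replicate 2 but was 0.25 without WT wounded replicate 1.

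A list of SRF, its actin-sensing cofactors MRTF and the genes *Elk1*, *Elk3* and *Elk4* had 6 genes tested (7 listed under distinct symbols). Of these *Elk3*, which is not an MRTF gene, was higher at 1.17 (edgeR's quasi-likelihood test, SE 0.50, unadjusted P = 0.0347). WT wounded replicate 2 decided this value, which was -0.05 without it, 1.81 without WT wounded replicate 1, 1.25 without WT unwounded replicate 1 and 1.09 without WT unwounded replicate 2, and of these 4 only the value without WT wounded replicate 1 had an unadjusted P under 0.05. *Srf* had a log2 fold change of 0.31 (edgeR's quasi-likelihood test, SE 0.22, unadjusted P = 0.186), and 0.66 without WT wounded replicate 2 (unadjusted P = 0.00454 by the same test) but -0.17 without WT wounded replicate 1. By edgeR's quasi-likelihood test, 0 of 23 other turnover and severing genes had an unadjusted P under 0.05, the closest being *Wdr1* at 0.31 and *Coro7* at 0.58 (edgeR's quasi-likelihood test, SE 0.27, unadjusted P = 0.0515). None passed among 10 other Arp2/3, WASP and WAVE genes, where the closest were *Wipf1*, with at most 1.13 CPM, and *Abi2* at -0.56 (edgeR's quasi-likelihood test, SE 0.29, unadjusted P = 0.0780). With 1 library left out an unadjusted P under 0.05 was reached by *Coro7* (0.79, WT unwounded replicate 2 out, and 0.58, cKO-labelled unwounded library out), *Abi2* (-0.83, WT wounded replicate 1 out) and *Wdr1* (0.32, cKO-labelled unwounded library out), while *Coro7* was 0.40 without WT unwounded replicate 1 and *Abi2* -0.34 without WT wounded replicate 2. None of these 5 lists held a gene with an adjusted p under 0.05 by edgeR's quasi-likelihood test in any of the 3 comparisons.

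Markers of keratinocyte state and of other cells differed with wounding in the same WT libraries, beside 3.18% of all genes tested that were higher and 4.84% in either direction. Of 5 wound keratinocyte markers 4 were higher at an unadjusted P under 0.05 by edgeR's quasi-likelihood test, and the list, led by *Krt16*, summed to 4469 and 5570 CPM in the WT unwounded, 6523 and 9689 CPM in the WT wounded, 2623 CPM in the cKO-labelled unwounded and 7025 and 4850 CPM in the cKO-labelled wounded libraries. Of 7 suprabasal markers tested 3 were lower by the same test, and that list, led by *Krt1* and without *Flg*, which is not listed, summed to 6306 and 6958 CPM in the WT unwounded, 3706 and 5406 CPM in the WT wounded, 9530 CPM in the cKO-labelled unwounded and 6740 and 8413 CPM in the cKO-labelled wounded libraries. Within WT these sums ran in opposite directions, wound markers being higher and suprabasal markers lower in both wounded libraries. Of single wound markers, *Krt16* and *Itga5* separated the WT groups, whereas *Krt6a*, *Krt6b* and *Krt17* overlapped. *Krt6a* had 512 and 1597 TMM-scaled CPM in the WT unwounded and 1473 and 3410 in the WT wounded libraries. In the same order *Krt6b* had 39.0 and 259 and then 232 and 1078, so WT unwounded replicate 2 was above WT wounded replicate 1 for both. Of 11 endothelial genes tested (12 listed) 4 were higher, and the list, led by *Vwf*, summed to 4.39 and 6.72 CPM in the WT unwounded, 34.8 and 22.4 CPM in the WT wounded, 0.889 CPM in the cKO-labelled unwounded and 16.4 and 20.6 CPM in the cKO-labelled wounded libraries, the cKO-labelled unwounded library having 9 of the 12 at 0. The mural and smooth muscle list, with 2 of 9 tested higher, summed to 238 and 234 CPM in the WT unwounded, 251 and 206 CPM in the WT wounded, 293 CPM in the cKO-labelled unwounded and 201 and 178 CPM in the cKO-labelled wounded libraries and was led by *Notch3*. *Notch3* and *Cspg4* made up most of that sum, with 103 and 129 TMM-scaled CPM in WT unwounded replicate 1. The muscle actin of this list, *Acta2*, a paralogue of *Actb* and *Actg1*, was at 0.581 and 2.32 CPM in the WT unwounded, 16.5 and 9.99 CPM in the WT wounded, 0.0741 CPM in the cKO-labelled unwounded and 0.723 and 4.48 CPM in the cKO-labelled wounded libraries. Leukocyte genes, with 2 of 7 tested higher, summed to 10.5 and 16.5 CPM in the WT unwounded, 16.4 and 42.7 CPM in the WT wounded, 10.2 CPM in the cKO-labelled unwounded and 17.6 and 20.4 CPM in the cKO-labelled wounded libraries. They were led by *Cd74*, with *Cd3e*, *Fcer1g* and *Tyrobp* at 0 in every library and *Ly6g* not listed. Melanocyte genes, with 2 of 4 tested higher, summed to 2.52 and 1.07 CPM in the WT unwounded, 9.55 and 5.51 CPM in the WT wounded, 2.15 CPM in the cKO-labelled unwounded and 6.17 and 7.07 CPM in the cKO-labelled wounded libraries and were led by *Dct*. Fibroblast genes, with 1 of 9 tested higher, summed to 1247 and 1458 CPM in the WT unwounded, 1259 and 1213 CPM in the WT wounded, 1031 CPM in the cKO-labelled unwounded and 947 and 964 CPM in the cKO-labelled wounded libraries and were led by *Postn*. *Postn* made up most of that sum, with 1118 and 1274 TMM-scaled CPM in the WT unwounded and 1138 and 1042 in the WT wounded libraries. *Col1a2*, at 4.91 and 3.59 and then 7.81 and 11.4, and *Dcn* were higher in both WT wounded libraries. *Col1a1*, *Col3a1*, *Fbln1* and *Thy1* overlapped. By the same test 0 of 6 basal keratinocyte markers had an unadjusted P under 0.05, and of 5 genes of the sex list *Xist* alone had one. The part of these markers in the members' values was not tested.

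The second comparison asked whether wound-edge keratinocytes labelled as lacking GRHL3 differ in this machinery from WT ones. Both cross-linkers that were higher after wounding in WT were lower in the cKO-labelled wounded libraries than in the WT wounded libraries, which both comparisons share. For *Actn1* the log2 fold change was -0.74 (edgeR's quasi-likelihood test, SE 0.17, unadjusted P = 0.000557), and for *Flna* it was -0.52 (edgeR's quasi-likelihood test, SE 0.17, unadjusted P = 0.00798). Both cKO-labelled wounded libraries were below both WT wounded libraries for both genes. The actins, the Arp2/3 and WAVE complexes and capping protein held no member with an unadjusted P under 0.05.

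These were the 2 members with an unadjusted P under 0.05, or 4.65% against 4.04% of all genes tested, a share near the background, and both were lower, as were 2.08% of all genes. By edgeR's quasi-likelihood test, 0 members had an adjusted p under 0.05 (Benjamini-Hochberg), as did 0% of all genes tested, with a smallest member value of 0.783 for *Actn1*. By DESeq2 and by edgeR's likelihood ratio test 2 members had an unadjusted P under 0.05, beside 556 and 873 of 14045 genes, and 0 members an adjusted p under 0.05. With no filter on low counts 1 member, *Actn1*, had an adjusted p under 0.05, beside 51 genes in all (adjusted p = 0.0109, Benjamini-Hochberg, edgeR's quasi-likelihood test, log2 fold change -0.74, both cKO-labelled wounded libraries below both WT wounded ones). The log2 fold change was below 0 for 32 members and above 0 for 11, or 74.4% lower against 51.2% of all genes, with medians of -0.09 and -0.01. The direction depended on single libraries: without cKO-labelled wounded replicate 1 the members' median was -0.23, and without cKO-labelled wounded replicate 2 it was 0.05. With no filter 4 members had an unadjusted P under 0.05, beside 776 of 16280 genes, and with the replicate block 3, beside 596 of 14045 genes. In CPM both cKO-labelled wounded libraries were below both WT wounded ones for 10 members, against 17.2% of all genes, and above both for 2, against 13.8%.

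*Actn1* kept an unadjusted P under 0.05 without each wounded library in turn, with log2 fold changes from -0.89 to -0.57. For *Flna* the value was -0.28 without cKO-labelled wounded replicate 2 (edgeR's quasi-likelihood test, unadjusted P = 0.0906) and -0.79 without cKO-labelled wounded replicate 1. *Actn4* had a log2 fold change of -0.09 (SE 0.15). *Enah* was at -0.52 (edgeR's quasi-likelihood test, SE 0.25, unadjusted P = 0.0589), and its unadjusted P was under 0.05 with no filter (-0.51), without WT wounded replicate 1 (-0.80) and without cKO-labelled wounded replicate 1 (-0.96). The value of *Enah* was -0.15 without WT wounded replicate 2 and -0.17 without cKO-labelled wounded replicate 2. *Tmsb10* was at -0.36 (edgeR's quasi-likelihood test, SE 0.29, unadjusted P = 0.233), and at -0.94 without cKO-labelled wounded replicate 1 (edgeR's quasi-likelihood test, unadjusted P = 0.00990) and 0.06 without cKO-labelled wounded replicate 2. *Zyx*, zyxin, a sensor of tension at adhesions, had the smallest P of the 29 members not given in full, with -0.45 (edgeR's quasi-likelihood test, SE 0.21, unadjusted P = 0.0508), and its highest library was WT wounded replicate 1.

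The other members given in full had no unadjusted P under 0.05. The log2 fold change was -0.10 (SE 0.15) for *Actg1*, 0.05 (SE 0.18) for *Arpc2*, -0.03 (SE 0.16) for *Nckap1* and -0.04 (SE 0.18) for *Capzb*. It was 0.09 (SE 0.16) for *Tmsb4x*, 0.06 (SE 0.19) for *Vasp*, -0.05 (SE 0.17) for *Rac1*, -0.09 (SE 0.26) for *Ptk2b* and -0.24 (SE 0.16) for *Tln1*. By role, all 6 adhesion genes, all 4 GTPases and 6 of 8 Arp2/3 subunits had values below 0, from -0.45 (*Zyx*) to -0.05 (*Lasp1*) among the adhesion genes and from -0.34 (*Arpc5*) to 0.19 (*Arpc1a*) in Arp2/3. Over the 29 members not given in full, values ran from -0.89 (*Rhoc*) to 0.40 (*Brk1*), 8 above 0 and 21 below.

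Among the listed pathway genes, focal adhesion genes had 7 of 36 lower and 0 higher in the cKO-labelled wounded libraries at an unadjusted P under 0.05 by edgeR's quasi-likelihood test, where 2.08% of all genes tested were lower and 4.04% had either direction. Named after their values were seen, these were *Nedd9* (-0.88), *Parva* (-0.65), *Fblim1* (-1.32), *Fermt2* (-1.08), *Vcl* (-0.62), *Pdlim7* (-0.77) and *Src* (-0.46). They encode an adaptor of the Cas family, a parvin, migfilin, a kindlin, vinculin, a LIM domain protein and a tyrosine kinase of adhesions. *Vcl* was at 419 and 274 CPM in the WT unwounded, 546 and 350 CPM in the WT wounded, 260 CPM in the cKO-labelled unwounded and 308 and 265 CPM in the cKO-labelled wounded libraries, with WT wounded replicate 1 the highest. *Nedd9*, *Fermt2* and *Pdlim7* were also highest there, at 186, 25.2 and 30.0 TMM-scaled CPM, against 114, 15.2 and 21.7 in WT wounded replicate 2. In the cKO-labelled wounded libraries *Nedd9* was at 70.0 and 93.4, *Fermt2* at 6.70 and 12.4 and *Pdlim7* at 15.0 and 15.4. The sizes of these differences, and that of *Vcl*, thus depend on WT wounded replicate 1. The value of *Fblim1* was -0.90 without WT wounded replicate 1 (edgeR's quasi-likelihood test, unadjusted P = 0.135) and -0.90 without cKO-labelled wounded replicate 2 (unadjusted P = 0.107 by the same test). 

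Of 18 other formins and barbed-end genes 3 were lower, *Fmnl2* (-0.65), *Fmnl3* (-0.84) and *Eps8* at -0.99 (edgeR's quasi-likelihood test, SE 0.29, unadjusted P = 0.00369), the last at -0.68 without WT wounded replicate 1 (edgeR's quasi-likelihood test, unadjusted P = 0.0661). WT wounded libraries had 44.6 and 41.9 TMM-scaled CPM of *Fmnl2*, against 34.99 and 19.96 in cKO-labelled wounded ones. For *Fmnl3* these were 20.1 and 10.6, against 6.36 and 10.8. The size for *Fmnl2* thus depends on cKO-labelled wounded replicate 2, and that for *Fmnl3* on WT wounded replicate 1. In the SRF and MRTF list 1 of 6 was lower, *Mkl1*, which encodes MRTF-A, at -0.51 (edgeR's quasi-likelihood test, SE 0.20, unadjusted P = 0.0189). *Srf* was at -0.37, and at -0.72 without WT wounded replicate 2 but 0.11 without WT wounded replicate 1. By edgeR's quasi-likelihood test 0 of 23 turnover and severing genes and 0 of 10 other Arp2/3, WASP and WAVE genes had an unadjusted P under 0.05. In the same libraries 4 of 7 suprabasal markers were higher and 2 of 5 wound keratinocyte markers lower by that test. Of the mural and smooth muscle genes 3 of 9 were lower, with *Acta2* at -2.35, and 1 of 11 endothelial and 1 of 9 fibroblast genes were lower, the list sums being those given with the WT comparison. Their part in the members' values was not tested.

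The third comparison uses all 7 libraries and asked which members differ with wounding when a common wound effect is fitted over both genotypes. Wounded libraries had more RNA of the cross-linkers *Actn1* and *Flna*, of *Enah* and of *Tmsb10*. *Enah* had a log2 fold change of 0.81 (edgeR's quasi-likelihood test, SE 0.21, unadjusted P = 0.00196) and *Tmsb10* one of 0.67 (edgeR's quasi-likelihood test, SE 0.23, unadjusted P = 0.0115). *Actn1* was at 0.55 (edgeR's quasi-likelihood test, SE 0.14, unadjusted P = 0.00157) and *Flna* at 0.52 (edgeR's quasi-likelihood test, SE 0.14, unadjusted P = 0.00178). In both genotypes all wounded libraries were above every unwounded library of that genotype for these 4 genes, for *Tmsb10* in cKO-labelled wounded replicate 2 only by 39.9 against 38.1 CPM. All 4 were lowest in the cKO-labelled unwounded library, which stands apart and is the only unwounded library of that label in this fit, and without it the WT libraries alone give values of 0.44 for *Actn1*, 0.54 for *Flna*, 0.66 for *Enah* and 0.71 for *Tmsb10*, each with an unadjusted P under 0.05 by edgeR's quasi-likelihood test and none with an adjusted p under 0.05 (Benjamini-Hochberg). These 4 were the members with an unadjusted P under 0.05 in the full fit, or 9.30% against 6.61% of all genes tested, and all were higher, as were 3.69% of all genes. By edgeR's quasi-likelihood test, 0 members had an adjusted p under 0.05 (Benjamini-Hochberg), against 0.0356% of all genes, with a smallest member value of 0.220 for *Actn1*. By DESeq2 and the likelihood ratio test 4 members had an unadjusted P under 0.05, beside 1063 and 1182 of 14045 genes. By DESeq2 3 members had an adjusted p under 0.05 (*Actn1*, *Enah* and *Flna*), beside 126 genes in all, and with no filter on low counts 4 did, beside 305. With edgeR's likelihood ratio test 0 did, beside 117, and without WT wounded replicate 1 *Actn1* and *Enah* did, beside 119, where the first fit had 5 genes in all. Values were above 0 for 32 members and below 0 for 11, or 74.4% higher against 51.8% of all genes, with a median of 0.09 against 0.01 over all genes tested.

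Without WT wounded replicate 2 the value of *Tmsb10* was 0.51 (edgeR's quasi-likelihood test, unadjusted P = 0.0711). *Ptk2b*, which was higher after wounding in WT, was at 0.38 (edgeR's quasi-likelihood test, SE 0.22, unadjusted P = 0.114) here. With the replicate block it was 0.50, with no filter 0.38, and without the cKO-labelled unwounded library, when the WT libraries alone give the wound effect, 0.69, each with an unadjusted P under 0.05 by edgeR's quasi-likelihood test, but it was 0.12 without WT wounded replicate 2 and 0.15 without WT unwounded replicate 1. *Capzb* was at 0.18 (SE 0.14), and at 0.31 without WT wounded replicate 1 (unadjusted P = 0.0439 by the same test) but 0.05 without WT wounded replicate 2. All 7 genes of the WAVE, N-WASP and cortactin group had values below 0, from -0.18 (*Nckap1*) to -0.00253 (*Cyfip1*), none with an unadjusted P under 0.05. All 6 monomer and turnover genes, all 3 capping genes and all 4 formin and Ena/VASP genes had values above 0. The remaining members given in full were *Actg1* at 0.09 (SE 0.13), *Actn4* at 0.08 (SE 0.12), *Arpc2* at 0.03 (SE 0.14) and *Nckap1* at -0.18 (SE 0.13). *Tmsb4x* was at 0.12 (SE 0.15), *Vasp* at 0.09 (SE 0.15), *Rac1* at 0.02 (SE 0.14) and *Tln1* at 0.03 (SE 0.12). Over the 29 others, values ran from -0.17 (*Wasf2*) to 0.40 (*Rhoc*), 19 above 0 and 10 below, and the smallest P was that of *Zyx* at 0.27 (edgeR's quasi-likelihood test, SE 0.17, unadjusted P = 0.128).

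In this comparison the turnover and severing genes had 4 of 23 higher, *Wdr1* (0.37), *Twf1* (0.52), *Dstn* (0.30) and *Ssh1* (0.71), and 1 lower, *Gsn* at -0.56 (edgeR's quasi-likelihood test, SE 0.16, unadjusted P = 0.00335), where 3.69% of all genes tested were higher and 6.61% had either direction. *Wdr1*, *Dstn* and *Ssh1* act in filament disassembly with cofilin, *Twf1* binds monomers and growing ends, and *Gsn* encodes gelsolin, which severs and caps. *Gsn* was at 1068 and 762 CPM in the WT unwounded, 750 and 740 CPM in the WT wounded, 1461 CPM in the cKO-labelled unwounded and 689 and 805 CPM in the cKO-labelled wounded libraries, highest in the cKO-labelled unwounded one. In the WT comparison *Gsn* was at -0.27, and no gene of this list passed there. *Wdr1*, *Twf1*, *Dstn* and *Ssh1* were each lowest in the cKO-labelled unwounded library. For *Dstn* it had 676 TMM-scaled CPM, against 824 and 799 in the WT unwounded and 831 and 970 in the WT wounded libraries. Focal adhesion genes had 3 higher (*Fblim1* at 1.39, *Pdlim7* at 0.63 and *Tes* at 0.59) and 3 lower (*Tns2* at -0.81, *Tns1* at -0.46 and *Kank1* at -0.48) of 36. The lower ones were highest in the cKO-labelled unwounded library, at 71.7, 487 and 431 TMM-scaled CPM, and of them only *Tns2* also passed in the WT comparison. In WT *Tns1* was at 329.7 and 326.5 unwounded and 261 and 270 wounded, and *Kank1* at 355 and 290 unwounded and 303 and 234 wounded. Without WT unwounded replicate 2, *Tes* was at 0.40, and it was at 0.43 without WT wounded replicate 2, both with an unadjusted P above 0.05. Of 18 formin and barbed-end genes 1 was higher, *Diaph3* (0.34). *Diaph3* was lowest in the cKO-labelled unwounded library, at 43.6 TMM-scaled CPM, and the size of its value depends on that library. WT libraries had 69.6 and 79.6 before wounding, against 85.3 and 82.4 after it, and *Diaph3* did not pass in the WT comparison. *Elk3* was higher at 1.09 in the SRF and MRTF list of 6, and at 0.46 without WT wounded replicate 2 and 0.94 without cKO-labelled wounded replicate 1. Other Arp2/3, WASP and WAVE genes had 0 of 10 with an unadjusted P under 0.05 by edgeR's quasi-likelihood test, *Abi2* being the closest at -0.46 (edgeR's quasi-likelihood test, SE 0.23, unadjusted P = 0.0587). Of 11 endothelial genes tested 6 were higher here, as were 4 of 5 wound keratinocyte, 3 of 9 fibroblast, 3 of 7 leukocyte and 1 of 4 melanocyte genes. Suprabasal markers had 3 of 7 lower, mural and smooth muscle genes 2 of 9 higher and 1 lower, and the sex list *Xist* lower, and their part in the members' values was not tested. The genes named for these lists, apart from *Wdr1*, *Fblim1*, *Tes*, *Elk3* and *Abi2*, were chosen after their values were seen.

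The wound response of the cKO-labelled libraries rests on 1 unwounded library and has no replicate check, so it was described without a test. Its cross-linkers and *Enah* were higher in both wounded libraries. A gene was counted when both wounded libraries differed from the unwounded one by at least 2-fold the same way on log2 CPM. By that rule 0 of 43 members differed, against 9.58% of all genes tested. The same rule in WT gave 0 members against unwounded replicate 1 (8.52% of all genes) and 1, *Rhoc*, against unwounded replicate 2 (7.78%). Without cKO-labelled wounded replicate 2, 2 members passed, *Enah* and *Tmsb10*, or 4.65% against 19.5% of all genes, and without replicate 1 none did, against 18.3%. The cKO-labelled wounded minus unwounded differences on the log2 scale were 1.39 and 0.59 for *Enah*, 0.84 and 0.59 for *Actn1*, and 0.73 and 0.21 for *Flna*. They were 1.03 and 0.02 for *Tmsb10* and 0.04 and -0.16 for *Ptk2b*, so *Ptk2b* in both cKO-labelled wounded libraries and *Tmsb10* in replicate 2 lay beside their unwounded values.

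With TMM scaling, both cKO-labelled wounded libraries were above the unwounded one for 18 members, or 41.9% against 34.0% of all genes tested, and below it for 9, against 34.8%. In unscaled CPM these were 23 and 10, against 35.0% and 33.8%. The cKO-labelled unwounded library was below both WT unwounded libraries for 22 members, or 51.2% against 34.5% of all genes, and above both for 8, against 36.3%. In unscaled CPM it was below for 27 and above for 6, against 38.2% and 32.2%. It was the lowest of the 7 libraries for 17 members in CPM (39.5% against 19.7% of all genes), and cKO-labelled wounded replicate 2 for 13 (30.2% against 10.3%). Against the mean of the WT unwounded libraries its median log2 difference was -0.47 over the cross-linkers, -0.36 over the formin and Ena/VASP genes and -0.23 over the monomer and turnover genes. Over the WAVE, N-WASP and cortactin genes it was 0.11, and over the small GTPases 0.21, a median of 4 genes that includes the imprecise *Rhoc*, beside 0.00 over all genes tested. The high *Xist* and absent Y-linked counts belong to this same library, and genotype, sex and library cannot be told apart in it.

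Paralogues and other related genes were compared as ratios of CPM per kb within each library, a measure that library scaling does not change. Whether a ratio lies above or below 1 depends on the annotated exon lengths, which are the same in every library. The ratio of *Actn1* to *Actn4* was 0.332 and 0.419 in the WT unwounded, 0.422 and 0.591 in the WT wounded, 0.220 in the cKO-labelled unwounded and 0.331 and 0.307 in the cKO-labelled wounded libraries. It was below 1 in every library, with the lowest value in the cKO-labelled unwounded one and the highest in WT wounded replicate 2. *Arpc1a* and *Arpc1b* encode alternative subunits of Arp2/3, and their ratio was 0.617 and 0.679 in the WT unwounded, 0.631 and 0.687 in the WT wounded, 1.26 in the cKO-labelled unwounded and 0.909 and 0.883 in the cKO-labelled wounded libraries. All 3 cKO-labelled libraries were above all 4 WT libraries, a separation noticed after the values were seen and not tested. For *Tmsb4x* to *Tmsb10* it was 6.24 and 8.78 in the WT unwounded, 4.73 and 3.94 in the WT wounded, 6.63 in the cKO-labelled unwounded and 3.92 and 9.67 in the cKO-labelled wounded libraries. Both WT wounded libraries were below both WT unwounded ones, whereas the cKO-labelled wounded libraries lay on both sides of the unwounded one. *Actb* to *Actg1* ran from 0.764 in the cKO-labelled unwounded library to 1.03 in WT wounded replicate 2, and *Rac1* to *Cdc42* from 0.960 in cKO-labelled wounded replicate 2 to 1.15 in WT unwounded replicate 1. The ratio of *Ptk2*, focal adhesion kinase, to *Ptk2b* was 1.65 and 0.968 in the WT unwounded, 1.10 and 0.622 in the WT wounded, 0.658 in the cKO-labelled unwounded and 0.694 and 0.694 in the cKO-labelled wounded libraries. It was above 1 in one library of each WT group and below 1 in the other 5.

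Listed ATAC-seq regions near the members were counted in each condition from 1 pooled library, with no test. The authors' lists held 10769 regions in WT unwounded, 36872 in WT wounded, 29364 in cKO-labelled unwounded and 22474 in cKO-labelled wounded keratinocytes, and a longer list covers more genes. At least 1 region lay within 5 kb of 22 members in WT unwounded keratinocytes, against 50.7% of 13536 tested genes with a position (51.2% of members). The count was 38 in WT wounded, 88.4% against 84.6%, 33 in cKO-labelled unwounded, 76.7% against 81.0%, and 33 in cKO-labelled wounded keratinocytes, 76.7% against 68.7%. Within 1 kb of the gene start a region was listed for 16 members in WT unwounded against 37.6% of genes, for 31 in WT wounded against 67.7%, for 27 in cKO-labelled unwounded against 63.6% and for 25 in cKO-labelled wounded keratinocytes against 54.0%. With lists of equal length the counts within 5 kb were 22, 14, 18 and 17 in that order, against 50.7%, 45.1%, 47.4% and 45.3% of genes, and WT wounded keratinocytes then had the fewest. With regions of a q of at most 0.01 they were 17, 34, 28 and 28, against 43.5%, 79.9%, 69.8% and 63.1% of genes. Regions were listed in all 4 conditions within 5 kb of 19 members (44.2% against 47.9% of genes) and in none for 3, *Arpc3*, *Cdc42* and *Coro1b* (6.98% against 12.1%).

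By role, regions at the gene start were counted beside the shares over all genes of 37.6%, 67.7%, 63.6% and 54.0%, and the groups are too small to be compared with each other. Of 8 Arp2/3 genes 5, 6, 6 and 6 had one in WT unwounded, WT wounded, cKO-labelled unwounded and cKO-labelled wounded keratinocytes. In the same order these counts were 4, 7, 6 and 6 of 7 WAVE, N-WASP and cortactin genes and 2, 3, 3 and 3 of 3 capping genes. They were 1, 4, 3 and 2 of 4 formin and Ena/VASP genes, 3, 4, 3 and 4 of 6 adhesion genes and 1, 3, 1 and 2 of 4 GTPases. The remaining groups had 0, 2, 2 and 0 of 3 cross-linkers, 0, 2, 2 and 1 of 6 turnover genes and 0, 0, 1 and 1 of 2 actins. A start region in WT wounded and cKO-labelled unwounded keratinocytes alone was listed for 5 members, *Actn1*, *Actn4*, *Coro1c*, *Enah* and *Wasf2*, or 11.6% against 7.79% of genes, a pattern singled out after its values were seen.

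*Actn1*, on the minus strand, had a region over its start in WT wounded keratinocytes at chr12:80259950-80260784 (mm10), with a fold enrichment over the local background of 4.91. Its cKO-labelled unwounded counterpart at chr12:80260112-80260621 had 4.76, and none was listed there in WT unwounded or cKO-labelled wounded keratinocytes. A region in the gene body was listed at chr12:80223637-80223855 in WT unwounded (3.70-fold), chr12:80223625-80223888 in WT wounded (4.82-fold) and chr12:80223494-80223976 in cKO-labelled unwounded keratinocytes (3.59-fold). Another body region, at chr12:80234429-80234633 in cKO-labelled unwounded (3.25-fold) and chr12:80234431-80234616 in cKO-labelled wounded keratinocytes (3.61-fold), was listed in neither WT condition. *Enah* had a start region at chr1:182019732-182020646 in WT wounded (3.82-fold) and chr1:182019762-182020510 in cKO-labelled unwounded keratinocytes (3.51-fold). *Tmsb10* had one at chr6:72958021-72958850 in WT wounded (4.32-fold), chr6:72958155-72958606 in cKO-labelled unwounded (3.93-fold) and chr6:72957935-72958404 in cKO-labelled wounded keratinocytes (4.06-fold). For *Flna* a region upstream of the annotated start was listed at chrX:74254421-74255016 in WT wounded keratinocytes (3.97-fold), with overlapping ones in both cKO-labelled conditions, and a region at chrX:74246372-74246948 in cKO-labelled wounded keratinocytes (3.71-fold) over its RefSeq promoter. *Ptk2b* had 1 region within 5 kb in WT unwounded, 8 in WT wounded, 5 in cKO-labelled unwounded and 5 in cKO-labelled wounded keratinocytes. A region absent from a list is one that was not called, which does not measure that it was closed.

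**Figure D3:**
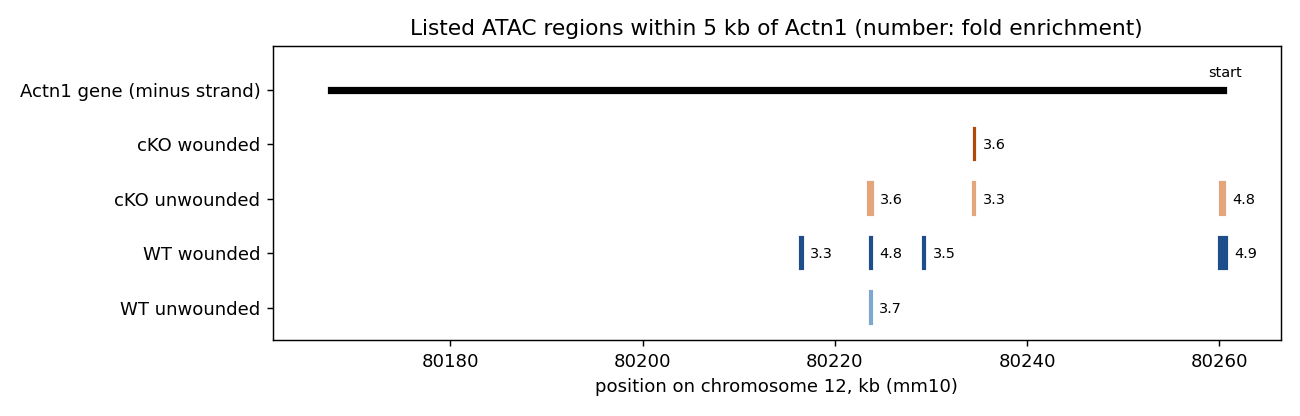
Listed ATAC-seq regions within 5 kb of *Actn1* along chromosome 12 (position in mm10) in the 4 conditions, with the fold enrichment over local background beside each. A region over the gene start appears in WT wounded (4.91) and cKO-labelled unwounded (4.76) keratinocytes.

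RefSeq promoters (GRCm38.p6, 250 bases before to 50 after the gene start) were held for 33 of the 43 members, 37 promoters in all, and none for *Actb*, *Coro1b*, *Cttn*, *Cyfip1*, *Diaph1*, *Nckap1*, *Ptk2*, *Ptk2b*, *Pxn* and *Rac1*. Their median G and C content was 65.3%, against 52.7% over 32851 promoters. Shown are the promoters of the 4 members with an unadjusted P under 0.05 over both genotypes, which also had a listed region over the printed bases in at least 1 condition. Each is on the minus strand and is printed 5′ to 3′, at chr12:80260314-80260613 for *Actn1*, chr1:182019931-182020230 for *Enah*, chrX:74246485-74246784 for *Flna* and chr6:72958434-72958733 for the one of 3 *Tmsb10* promoters with a match to AACNNGTT, which capitals mark.
Actn1: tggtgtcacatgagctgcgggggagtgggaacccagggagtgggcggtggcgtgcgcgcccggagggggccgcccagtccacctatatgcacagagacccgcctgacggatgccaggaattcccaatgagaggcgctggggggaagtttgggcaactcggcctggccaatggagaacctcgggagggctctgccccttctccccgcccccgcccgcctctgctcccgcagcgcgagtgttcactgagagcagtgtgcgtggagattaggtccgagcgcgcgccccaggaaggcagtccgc
Enah: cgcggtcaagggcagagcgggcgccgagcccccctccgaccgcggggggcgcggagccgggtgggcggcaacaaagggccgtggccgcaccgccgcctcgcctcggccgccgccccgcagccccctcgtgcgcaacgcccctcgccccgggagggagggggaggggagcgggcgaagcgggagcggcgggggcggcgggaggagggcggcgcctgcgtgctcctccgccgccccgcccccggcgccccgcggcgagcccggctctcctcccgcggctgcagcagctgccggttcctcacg
Flna: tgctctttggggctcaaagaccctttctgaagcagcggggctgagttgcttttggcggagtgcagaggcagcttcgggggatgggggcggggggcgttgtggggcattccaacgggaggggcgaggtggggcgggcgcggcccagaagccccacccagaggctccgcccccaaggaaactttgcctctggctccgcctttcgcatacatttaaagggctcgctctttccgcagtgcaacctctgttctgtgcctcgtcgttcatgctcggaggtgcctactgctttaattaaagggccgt
Tmsb10: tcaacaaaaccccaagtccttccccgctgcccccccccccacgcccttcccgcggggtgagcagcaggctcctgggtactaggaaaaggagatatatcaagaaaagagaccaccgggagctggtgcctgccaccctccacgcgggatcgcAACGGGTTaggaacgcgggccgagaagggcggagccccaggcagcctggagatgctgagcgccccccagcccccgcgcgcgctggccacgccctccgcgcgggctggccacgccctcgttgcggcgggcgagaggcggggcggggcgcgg

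The GRHL motif AACCGGTT, which reads the same on both strands, was in 0 of the members' 37 promoters and in 0.146% of all promoters. Its looser form AACNNGTT, which includes the first and also reads the same on both strands, was in 3 of the members' 37 promoters, 1 each of *Actn4*, *Tmsb4x* and *Tmsb10*, or 8.11% against 4.20% of all promoters. The CArG box, the DNA motif named for SRF, searched on both strands, was in 1 promoter each of *Actg1* and *Arpc4*, or 5.41% against 1.63%. The TATA box was in 1 promoter each of *Cdc42* and *Tmsb10*, or 5.41% against 12.5%. A match is a description of letters, not a bound site. The matches of *Actn4*, *Tmsb4x* and *Actg1* start 203, 220 and 90 bases before the gene start. They are shown in capitals with their flanks because they set the looser GRHL letters in a cross-linker and a monomer buffer beside the CArG box of the most abundant member, on the minus strand of GRCm38.p6 at chr7:28962508-28962555, chrX:167209411-167209458 and chr11:120348556-120348605.
Actn4: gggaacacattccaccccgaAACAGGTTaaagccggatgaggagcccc
Tmsb4x: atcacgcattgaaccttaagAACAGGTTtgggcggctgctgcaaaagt
Actg1: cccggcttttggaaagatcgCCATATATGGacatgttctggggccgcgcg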

How the data were processed

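RNA-seq of 7 libraries and ATAC-seq of 4 were used. The RNA-seq tables deposited by the authors hold read counts, as whole numbers for each symbol. In the ATAC-seq lists deposited by the authors each region has a fold enrichment over its local background, with its significance as −log10 p and −log10 q. The study's methods name FastQC, kallisto with mm10, and edgeR, and the step that made the count tables is not given in the sources used here. Tallies of unassigned reads (not unique 3.46% to 4.74%, ambiguous 1.34% to 1.45% of the reads on genes, ambiguous or not unique) were left out of CPM.

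The 7 libraries in 4 groups were fitted at once with edgeR (TMM, filterByExpr, quasi-likelihood test, two-sided, Benjamini-Hochberg over 14045 genes; biological coefficient of variation 31.6%, 32.7% in the additive fit of wounding and genotype). The cKO wound response used a 2-fold rule on log2 CPM with prior count 2. Levels per kb and distances used GENCODE vM21 (mm10), which matched 23379 symbols. Older symbols were followed for *Diaph1*, *Diaph2* and *Diaph3*, and *Mkl1* and *Mkl2* stand for MRTF-A and MRTF-B. The statistics were tested on simulated data.

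Members given in full are those with an unadjusted P under 0.05 in any of the 3 comparisons, the one with most CPM per kb in each role group, and *Tmsb10* and *Ptk2b*, which the plan listed and which also pass the first rule, 14 in all. Of each of 5 pathway lists the counts and the 2 smallest P in the WT comparison are given, and of each marker list (basal, suprabasal and wound keratinocyte, mural and smooth muscle, fibroblast, endothelial, leukocyte, melanocyte, erythroid, sex) the sum and the most abundant gene. The members and lists were chosen with earlier results of these data known.

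Alternatives were DESeq2, RLE normalization, a likelihood ratio test in edgeR, a replicate block, at least 10 counts in every library, no filter, only the 4 libraries compared, each library left out, other prior counts (0.5 and 5), TMM-scaled CPM, q at most 0.01, equal list lengths and other distances. Leaving out the cKO-labelled unwounded library in the WT and genotype comparisons was chosen after seeing the data. Protein sequences were not analysed here, and some results are not reported here. Tools were Python 3.11.15 with pandas 2.3.3, numpy 2.4.6 and matplotlib 3.10.9, and R 4.3.3 with DESeq2 1.42.0, limma 3.58.1 and edgeR 4.0.16.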

Additional observations from a re-analysis of the deposited data

Results flagged for a closer look

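On TMM-scaled log2 CPM, for 2 members the wounded libraries lay wholly above the unwounded ones in one genotype and wholly below in the other. The log2 wound difference of *Rhob*, a small GTPase, was 0.3739 in WT and -0.5453 in the cKO-labelled libraries, which differ by -0.9193. For *Cttn*, cortactin, it was 0.092 in WT and -0.2318 in the cKO-labelled libraries, which differ by -0.3238. Each was singled out because, on scaled log2 CPM, its WT wounded libraries were all on one side of the WT unwounded ones while both cKO-labelled wounded libraries were on the other side of the 1 cKO-labelled unwounded library. In CPM without that scaling *Cttn* overlapped in WT, whereas *Tln1* separated as *Rhob* did and *Arpc3* the other way, lower after wounding in WT and higher in the cKO-labelled libraries, so the scale decides which members qualify. The difference between the genotypes was not tested, and the share of all genes with such opposite directions was not counted. In CPM, both WT wounded libraries were above both WT unwounded ones for 15.2% of all genes and below both for 18.3%. Both cKO-labelled wounded libraries were above their 1 unwounded library for 35.0% and below it for 33.8%. The 2 members are thus not shown to exceed the background.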

How the results depend on the processing

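Under alternatives other than leaving out a single replicate of a group of 2 libraries, 315 log2 fold changes of single members kept their direction and call. There 3 changed direction and 4 gained a call, and of counts or medians 108 stayed near their first value and 10 moved. With a single replicate left out, 150 log2 fold changes stayed the same and 32 changed direction, and 49 counts or medians stayed and 9 moved. Members with an unadjusted P under 0.05 ranged from 3 to 5 with a library left out in the WT comparison and from 1 to 7 in the genotype comparison, where no filter gave 4 and 1 member with an adjusted p under 0.05. The members' median in that comparison ranged from -0.226 to 0.0462. All genes with an unadjusted P under 0.05 by the likelihood ratio test were 1117 in the WT and 873 in the genotype comparison, where leaving out a library gave 420 to 855. Over both genotypes, members with an adjusted p under 0.05 were 3 by DESeq2, 4 with no filter and 0 to 2 with a library left out. The 2-fold rule gave 0 to 2 members, the summed CPM of the cKO-labelled unwounded library was 15374 with TMM scaling, and equal list lengths gave 14, 18 and 17 members near a region in WT wounded, cKO-labelled unwounded and cKO-labelled wounded keratinocytes. The cause was not tested.

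Some log2 fold changes close to 0 changed sign. Over both genotypes that of *Tmsb4x* was -0.0691 without the cKO-labelled unwounded library, and that of *Rac1* was -0.00140 without it and -0.00275 with the replicate block. As a check on pairing by replicate number, the deviation of replicate 1 from its group mean in log2 CPM was correlated between groups over 14045 genes. The correlation was 0.154 for WT unwounded with WT wounded and -0.0386 for WT wounded with cKO-labelled wounded. For WT unwounded with cKO-labelled wounded it was -0.0109. With a library left out, the WT values ranged over *Actn4* -0.0767 to 0.0865, *Arpc2* -0.149 to 0.135, *Nckap1* -0.285 to 0.000947, *Tmsb4x* -0.222 to 0.0488, *Capzb* -0.135 to 0.367, *Vasp* -0.0598 to 0.169 and *Rac1* -0.0879 to 0.0594. Those of the genotype comparison ranged over *Actg1* -0.268 to 0.0668, *Arpc2* -0.175 to 0.248, *Nckap1* -0.109 to 0.0592, *Tmsb4x* -0.0595 to 0.242, *Tmsb10* -0.939 to 0.0621, *Capzb* -0.266 to 0.236, *Vasp* -0.196 to 0.282, *Rac1* -0.276 to 0.150 and *Ptk2b* -0.378 to 0.287. Those over both genotypes ranged over *Actg1* -0.00595 to 0.154, *Arpc2* -0.0457 to 0.102, *Vasp* -0.000906 to 0.157 and *Rac1* -0.0541 to 0.0867. A group left with 1 library was assumed to vary like the others.

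With 2 libraries a group and a biological coefficient of variation of 31.6%, differences of the size most members show could not be told from replicate spread. The cKO-labelled unwounded group is 1 library, and each ATAC-seq list is 1 pooled library, so neither has a measure of spread. Depth limits *Rhoc*, with 7 to 73 counts.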
